A study of Mus musculus with 2 samples.

Results

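The C/EBP genes Cebpa, Cebpb, Cebpd and Cebpg, the nuclear receptor gene Pparg and the fat-cell genes Fabp4, Adipoq, Lpl, Angptl4 and Cd36 were followed in primary mouse osteoblasts. All probe sets that the platform annotation assigns to 1 of these 10 symbols alone were taken, which gave 21 probe sets of 45037 on the array without controls, and 10 genes of 18193. Cultures at day 10 of differentiation in fetal calf serum (10%), beta-glycerophosphate (10 mM) and ascorbic acid (50 µg/ml) were deprived of serum overnight. They then received for 6 hours the medium conditioned by either of 2 human prostate cancer cell lines, MDA-PCa2b, which is known for bone-forming metastases, or PC-3, which is known for bone-destroying ones. The question was how the factors released by each line act on the transcripts of osteoblasts. There was 1 array per medium, so no spread between cultures, standard error or p-value could be had, and every difference below is between these 2 RNA samples. The letters MDA also stand in the PC-3 sample's title, so its group was taken from the source description. No array of cells kept free of tumour-cell medium was used here, and "higher" or "lower" refers to PC-3 medium, with MDA-PCa2b medium as the base.

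C/EBP proteins are leucine-zipper transcription factors that bind DNA as dimers. In fat-cell formation C/EBP-beta and C/EBP-delta appear early and turn on the genes of C/EBP-alpha and PPAR-gamma, which maintain each other and drive the genes of lipid storage. The same early factors are known from the acute-phase response, where inflammatory cytokines induce them within hours. Osteoblasts and fat cells of the marrow come from common stromal precursors, and PPAR-gamma favours the fat-cell fate. C/EBP-beta is also known to act in osteoblasts together with Runx2.

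At 6 hours, the only time sampled, the early factors and the lipase inhibitor Angptl4 were higher under PC-3 medium. The late regulators of the fat-cell programme, Cebpa and Pparg, with 1 probe set each, were not. Later times were not measured. Cebpb was 4.06-fold higher, Angptl4 4.39-fold and Cebpd 2.04-fold, by the brightest probe set of each gene. Cebpa, Cebpg, Cd36 and Lpl lay within 1.5-fold, as did Adipoq, and Pparg was close to the median signal of the arrays. Fabp4, at 1.97-fold, was just short of 2-fold. These 3 genes of 10 at least 2-fold higher stand beside a background of 2.12% of 11335 measured genes, and 0 of 10 at least 2-fold lower beside 1.85%. At 1.5-fold, 4 of 10 were higher beside 5.59% of all measured genes, and 0 of 10 lower beside 6.56%. Here a gene counts as measured when its brightest probe set was above the median signal of its array (56.7 under MDA-PCa2b medium and 57.7 under PC-3 medium) on at least 1 array; lower signals were raised to that floor before log2 was taken. The median log2 ratio of the 10 genes was 0.33, beside -0.04 over all measured genes.

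**Figure D1:**
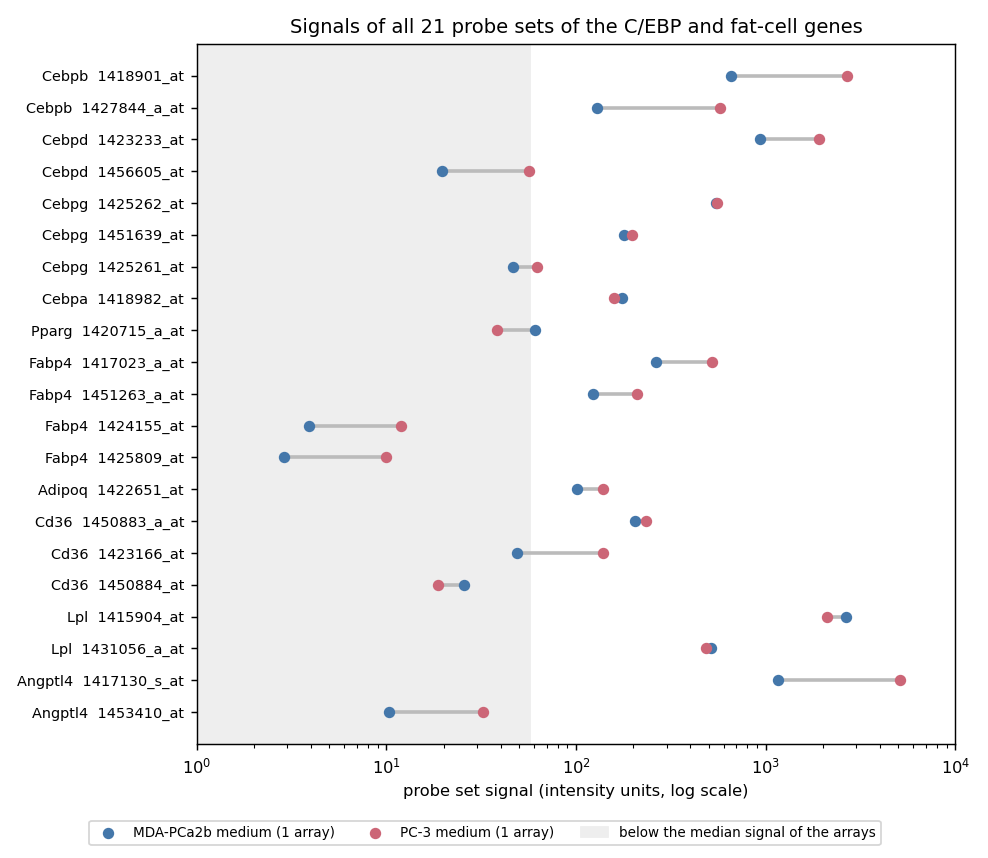
Probe set signals (log axis, intensity units) of the C/EBP and fat-cell genes, with 1 blue point for MDA-PCa2b medium and 1 red point for PC-3 medium per probe set and grey shading below the median signal of the arrays. Both Cebpb pairs and the upper Angptl4 pair are the widest outside the shaded range, and 5 probe sets lie inside it on both arrays.

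Cebpb encodes C/EBP-beta. Its brightest probe set, 1418901_at, gave a signal of 658 under MDA-PCa2b medium and 2670 under PC-3 medium. The second, 1427844_a_at, gave 129 and 574. The log2 ratios were 2.02 and 2.16, so both probe sets placed the difference near 4-fold and above. Probe sets of the same gene scattered around their gene's mean log2 ratio with an SD of 0.24 over 4924 genes, which measures the probes and not the spread between cultures. By its brightest probe set Cebpb held rank 47 from the highest of the 11335 measured genes, and 0.406% of them had a higher ratio.

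Cebpd encodes C/EBP-delta, the other early factor. Probe set 1423233_at gave 930 under MDA-PCa2b medium and 1898 under PC-3 medium, a log2 ratio of 1.03 and rank 225. The second probe set, 1456605_at, was below the floor on both arrays (19.6 and 56.1) and was not used. Cebpd thus rests on a single probe set. It and Fabp4 lie on opposite sides of 2-fold with log2 ratios of 1.03 and 0.98, closer together than the probe set scatter.

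Cebpg encodes C/EBP-gamma, a short family member without a strong activation domain that pairs with other leucine-zipper proteins. Its brightest probe set, 1425262_at, gave 543 under MDA-PCa2b medium and 555 under PC-3 medium, a log2 ratio of 0.03. Probe set 1451639_at gave 178 and 197, a log2 ratio of 0.14. The third, 1425261_at, exceeded the floor only under PC-3 medium (46.5 and 62.4), which bounds its log2 ratio at 0.14 or more. Both measured ratios were within the probe set scatter of 0.

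Cebpa encodes C/EBP-alpha, which maintains the mature fat cell. Its single probe set, 1418982_at, gave 174 under MDA-PCa2b medium and 157 under PC-3 medium, a log2 ratio of -0.15, also within the scatter. Cebpa and Cebpg are neighbours on chromosome 7, where only 2 genes with provisional Gm names start between them in the RefSeq table (GRCm38.p6). Of the 4 C/EBP genes, then, 2 were at least 2-fold higher and 2 differed by less than the probe set scatter.

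Pparg encodes PPAR-gamma, the nuclear receptor that directs fat-cell formation. Its single probe set, 1420715_a_at, gave 60.7 under MDA-PCa2b medium, just above the floor, and 38.3 under PC-3 medium, below it. The log2 ratio is therefore only bounded, at -0.07 or less. With the floor at the 25th percentile both signals counted as measured and the log2 ratio was -0.67. Neither array gave Pparg a signal well clear of the median of all probe sets.

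The promoters of Cebpb and Cebpa are shown because these relatives had unlike ratios between the media, and that of the third Pparg start because it holds the C/EBP motif. Whether the promoters bear on the ratios was not tested. Each is the stretch of 250 bases before a transcription start listed by RefSeq (GRCm38.p6), written 5′ to 3′ along the gene, with the matches to the motifs searched in capitals. The Cebpb window is chr2:167688665-167688914 on the plus strand, the Cebpa window chr7:35119043-35119292 on the plus strand, and the Pparg window chr6:115421816-115422065 on the plus strand.
Cebpb: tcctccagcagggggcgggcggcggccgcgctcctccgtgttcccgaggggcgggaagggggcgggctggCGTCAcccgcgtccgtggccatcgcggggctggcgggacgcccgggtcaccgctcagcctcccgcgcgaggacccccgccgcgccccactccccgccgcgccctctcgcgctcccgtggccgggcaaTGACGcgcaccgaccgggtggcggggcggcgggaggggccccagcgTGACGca
Cebpa: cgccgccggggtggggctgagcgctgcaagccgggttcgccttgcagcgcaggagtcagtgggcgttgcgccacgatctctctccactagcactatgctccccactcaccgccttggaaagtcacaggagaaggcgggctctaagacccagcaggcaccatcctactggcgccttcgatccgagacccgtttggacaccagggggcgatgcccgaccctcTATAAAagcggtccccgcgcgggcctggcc
Pparg: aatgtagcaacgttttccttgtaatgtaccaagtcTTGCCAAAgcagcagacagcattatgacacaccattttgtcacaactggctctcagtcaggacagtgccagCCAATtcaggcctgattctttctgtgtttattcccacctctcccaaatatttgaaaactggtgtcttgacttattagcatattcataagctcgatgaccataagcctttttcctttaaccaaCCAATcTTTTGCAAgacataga

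In the Cebpb window the capitals are the core of the cAMP response element, TGACG or its reverse complement, which occurred 3 times, the nearest ending 3 bases before the listed start. A TATAAA, which usually lies before a start, begins at base 22 after it, so the listed Cebpb start may lie upstream of the main one, and positions hold for the listed start only. This core was found in 17.8% of the 32851 windows in the table, and in no window of the other C/EBP and fat-cell genes that the table holds. It was added to the search after these sequences had been read, so its place in Cebpb alone is no evidence of a special feature. The Cebpb window was 81.6% G and C, beside a median of 52.4% over all windows. The share of 17.8% is therefore not a background of like composition. The full element TGACGTCA, present in 1.55% of all windows, was not in the Cebpb window. In the Cebpa window the capitals are the TATA box TATAAA, 30 to 25 bases before the start, a motif held by 12.4% of all windows. In the Pparg window they are 2 matches to the C/EBP motif TTGCNNAA, at 215 to 208 and at 16 to 9 bases before the start, and 2 CCAAT boxes. The C/EBP motif was found in 9.56% of all windows and in 1 of the 8 windows of these genes.

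Windows were held for 6 of the 10 genes (3 for Pparg, 1 each for Cebpa, Cebpb, Cebpg, Adipoq and Cd36) and not for Cebpd, Fabp4, Lpl and Angptl4. All motifs were searched on both strands. CCAAT boxes, found in 33.8% of all windows, were in 5 of the 8. The STAT motif TTCNNNGAA (7.02% of all windows), the AP-1 motif TGANTCA (6.75%), the C/EBP-ATF motif TGATGNAA (3.45%) and the hypoxia core ACGTG (16.6%) were in 0 of the 8. So were the motifs named NF-kB site (4.11%), glucocorticoid response element (0.387%) and PPAR-RXR direct repeat (0.338%). TGACG is part of TGACGTCA, and TGACG and CCAAT were added after the sequences had been read. A match describes letters and is not evidence of binding.

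Among the fat-cell genes, Angptl4 had the largest ratio. It encodes a secreted protein that inhibits lipoprotein lipase and is known to be induced by PPARs, glucocorticoids and low oxygen. Probe set 1417130_s_at gave 1161 under MDA-PCa2b medium and 5093 under PC-3 medium, a log2 ratio of 2.13 and rank 40 of the 11335 measured genes. The suffix of this probe set means that it can match more than 1 transcript. The second probe set, 1453410_at, was below the floor on both arrays (10.3 and 32.5), so that the value rests on 1 probe set.

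Lpl encodes lipoprotein lipase, the enzyme that Angptl4 inhibits. Probe set 1415904_at gave 2652 under MDA-PCa2b medium and 2107 under PC-3 medium, and 1431056_a_at gave 516 and 482. The log2 ratios were -0.33 and -0.10, both slightly lower. The second ratio was within the probe set scatter of 0.24, as was the mean over both probe sets, -0.21. A difference in Lpl is therefore not clear. By the brightest probe set of each gene Lpl was 1.26-fold lower and Angptl4 4.39-fold higher.

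Fabp4 encodes the fatty acid-binding protein of fat cells and macrophages. Probe set 1417023_a_at gave 265 under MDA-PCa2b medium and 522 under PC-3 medium. The second above the floor, 1451263_a_at, gave 122 and 210. Their log2 ratios of 0.98 and 0.78 were both higher and close together, and the brighter held rank 253. The other probe sets, 1424155_at (3.92 and 12.0) and 1425809_at (2.90 and 9.96), were far below the floor on both arrays.

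Adipoq encodes adiponectin, a hormone made by mature fat cells. Its single probe set, 1422651_at, gave 101 under MDA-PCa2b medium and 139 under PC-3 medium, a log2 ratio of 0.47 that 8.43% of measured genes exceeded. Both signals were less than 3 times the floor. This ratio is smaller than those of Fabp4 and was about 1.38-fold.

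Cd36 encodes a fatty acid and lipoprotein scavenger receptor of fat cells, macrophages and small vessels. Its probe sets did not agree on the size of the difference. The brightest, 1450883_a_at, gave 205 under MDA-PCa2b medium and 233 under PC-3 medium, a log2 ratio of 0.19. Probe set 1423166_at was below the floor under MDA-PCa2b medium (49.0) and gave 138 under PC-3 medium, at least 2.43-fold higher. The third, 1450884_at, was below the floor on both arrays (25.7 and 18.6). The gap between the first 2 log2 ratios was at least 1.10, because the second is a bound. Only 2.38% of 5417 genes with several measured probe sets, bounds included, had a gap wider than 1.10. With these probe sets averaged, the log2 ratio of Cd36 was 0.73, also a lower bound.

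**Figure D2:**
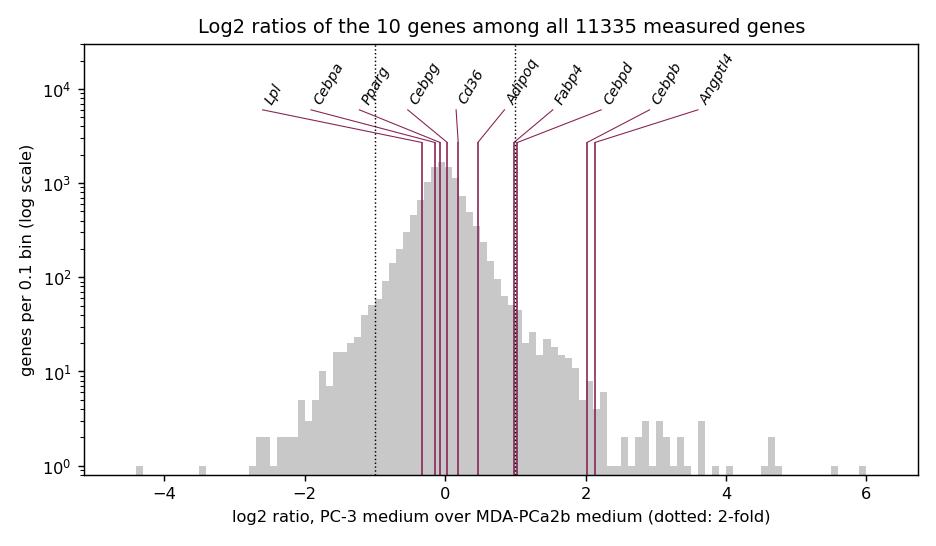
Histogram of log2 ratios (PC-3 medium over MDA-PCa2b medium) of the 11335 measured genes, with a log count axis, bins of 0.1 and purple lines at the 10 C/EBP and fat-cell genes. Angptl4 and Cebpb lie in the thin upper tail above 2, Cebpd and Fabp4 lie at the 2-fold line, and the other 6 lie within the bulk.

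Taken by probe set, 16 of the 21 were above the floor on at least 1 array, and 5 of these were at least 2-fold higher, beside 2.13% of 20523 probe sets with 1 gene. They were both of Cebpb and 1 each of Cebpd, Angptl4 and Cd36. Probe sets of 1 gene are repeat measurements of the same RNA samples, not replicates. The Cd36 probe set, 1423166_at, was above the floor only under PC-3 medium. It counted through that array alone, and its ratio is a lower bound. At least 2-fold lower were 0 of 16, beside 1.54%. At 1.5-fold, 7 of 16 were higher beside 6.30%, and 0 of 16 lower beside 5.89%. The 5 probe sets below the floor on both arrays were given no ratio. Their raw signal was higher under PC-3 medium in 4 and lower in 1, beside 51.9% higher among all 14422 probe sets below the floor.

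The cell type given in the labels was checked against marker genes. Osteoblast markers were all above the floor, 9 of 9 analysed, and Col1a1, Sparc and Ibsp gave signals of 15794 or more on each array. By the brightest probe set all 9 had a log2 ratio below 0, beside 6305 of the 11335 measured genes, and the median was -0.12. Those of Col1a1 (-0.004), Col1a2 (-0.02) and Sparc (-0.02) were well within the probe set scatter of 0. The 2 other Sparc probe sets gave 0.03 and 0.33. Other probe sets of Col1a1 (-0.15), Col1a2 (-0.59 to -0.08) and Ibsp (-0.36) stayed below 0. The count of 9 is thus not a uniform fall of these markers. At least 2-fold lower was 1, Ifitm5, beside 1.85% of all measured genes, and 0 were at least 2-fold higher, beside 2.12%. Sp7, the osterix gene, had a log2 ratio of -0.68 and Alpl, the alkaline phosphatase gene, -0.41. Of 13 analysed adipocyte markers, 4 of which are among the 10 genes, 7 were measured and none was 2-fold different. The largest ratios were those of Fabp4 and of Cidea, a lipid droplet protein gene that was at least 1.53-fold lower as a bound (88.1 and 54.6). Cidec, Retn, Lep, Pck1, Acvr1c and Aqp7, all of them genes of mature fat cells, were below the floor on both arrays. The summed signal of the adipocyte markers was 923 under MDA-PCa2b medium and 1163 under PC-3 medium, and that of Fabp4 within it 265 and 522.

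Macrophages also express Cd36, Lpl, Fabp4 and Pparg, and their markers were present. Of 18 macrophage and osteoclast markers 16 were measured, among them Lyz2 (9194 and 9416), Csf1r (2713 and 2378) and Adgre1 (1346 and 1405). The largest ratios in the list were those of the lysosomal gene Cd68 (566 and 851, log2 ratio 0.59) and of Acp5, the osteoclast acid phosphatase gene (225 and 306, 0.45). None differed 2-fold, 13 of 16 had a log2 ratio above 0, beside 5030 of all 11335, and the median was 0.17. Their summed signal was 28613 under MDA-PCa2b medium and 29656 under PC-3 medium; Cd163 and Calcr were below the floor on both arrays. The part of macrophages in the signals of Fabp4, Cd36, Lpl and Cebpb was not tested. In RNA of whole cultures, fewer cells of a type and less RNA per cell cannot be told apart. Of 12 endothelial markers 11, Pecam1 and Cdh5 among them, were below the floor on both arrays, and the transcription factor gene Erg was the exception.

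Other genes of the programme were taken from lists by role. The 2-fold counts of each list stand beside 2.12% of all measured genes higher and 1.85% lower. Among 12 measured leucine-zipper and partner genes the median log2 ratio was 0.08, and 1 was at least 2-fold higher and 1 lower. Nfil3, the gene of a leucine-zipper repressor, was 2.34-fold higher (286 and 668). Trib2, whose product promotes breakdown of C/EBP-alpha, was 2.06-fold lower (2288 and 1112; log2 ratio -0.71 by its other probe set). Ddit3, the gene of the C/EBP partner CHOP, was picked with its values in view and had a log2 ratio of 0.54, and 0.46 by its other probe set.

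Inducers of fat-cell formation other than the 10 genes had a median of 0.05 (16 genes), with none at least 2-fold higher and 1 lower. This was Id2, a helix-loop-helix regulator gene (1910 and 814, 2.35-fold lower; log2 ratio -1.53 by its other probe set). The median of 16 inhibitors of fat-cell formation was 0.13, with none higher and 1 lower. This was Klf2, whose product represses Pparg (821 and 296, 2.77-fold lower).

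PPAR relatives, RXR partners and cofactors had a median of 0.10 over 9 measured genes, none of them 2-fold different. They were led by the coactivator gene Ppargc1b, at least 1.54-fold higher as a bound, and Ppard, the gene of PPAR-delta, 1.51-fold higher (226 and 340). Ppara, Rxrg and Ppargc1a were below the floor on both arrays. PPAR-responsive genes of fatty acid oxidation (15 measured) had a median of 0.08, again with none 2-fold different. Acot1, an acyl-CoA thioesterase gene, led with 1.44-fold, before Acadm, the medium-chain acyl-CoA dehydrogenase gene, with 1.31-fold. No gene of this list differed by as much as Angptl4, whose ratio only 0.344% of all measured genes exceeded. Whether PPARs bear on the ratio of Angptl4 was not tested.

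Mature fat-cell genes had a median of 0.03 over 18 measured genes, and 8 more were below the floor on both arrays. Only Dgat1, which encodes an enzyme of the last step of triglyceride synthesis, was at least 2-fold different (391 and 906, 2.32-fold higher). Genes of fatty acid uptake and activation (12 measured) had a median of 0.07 and none was 2-fold different, led by Slc27a3 (1.79-fold higher) and the acyl-CoA synthetase gene Acsl3 (1.57-fold lower). Of 6 measured partners of lipoprotein lipase and lipoprotein receptor genes, 1 was at least 2-fold lower, Vldlr (2686 and 1232), and the median was -0.30. The 5 other measured probe sets of Vldlr gave log2 ratios from -1.13 to -0.58, not all of them 2-fold. Gpihbp1, which anchors the lipase to vessel walls, was below the floor on both arrays. Of the other angiopoietin-like genes analysed, Angptl1 was bounded at a log2 ratio of -0.49 or less, Angptl6 had 0.20, and Angptl7 was below the floor.

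The list of inflammatory and acute-phase genes known as C/EBP targets had a different profile, though not in all its genes. Of 21 analysed, 5 were below the floor on both arrays: Orm1, Orm2, Il1b, Tnf and Nos2. Of 16 measured genes 10 were at least 2-fold higher, beside 2.12% of all measured genes, and none was at least 2-fold lower, beside 1.85%. The median log2 ratio was 2.29, bounds included, and the leaders were Saa3, Cxcl1, Ccl2 and Serpina3n. The 6 others, Cp, Ptgs2, Cd14, Il1rn, Csf3 and G0s2, did not reach 2-fold by the brightest probe set. Serpina3n, Lcn2, Mmp3 and Csf3 were above the floor only under PC-3 medium. They counted as measured through that array alone, and their ratios are lower bounds. Many genes of the list are also targets of NF-kB and STAT3. The list was drawn up with earlier results of these arrays known, so its count is no independent evidence. With a floor at the 75th percentile the median of the list was 1.05.

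**Figure D3:**
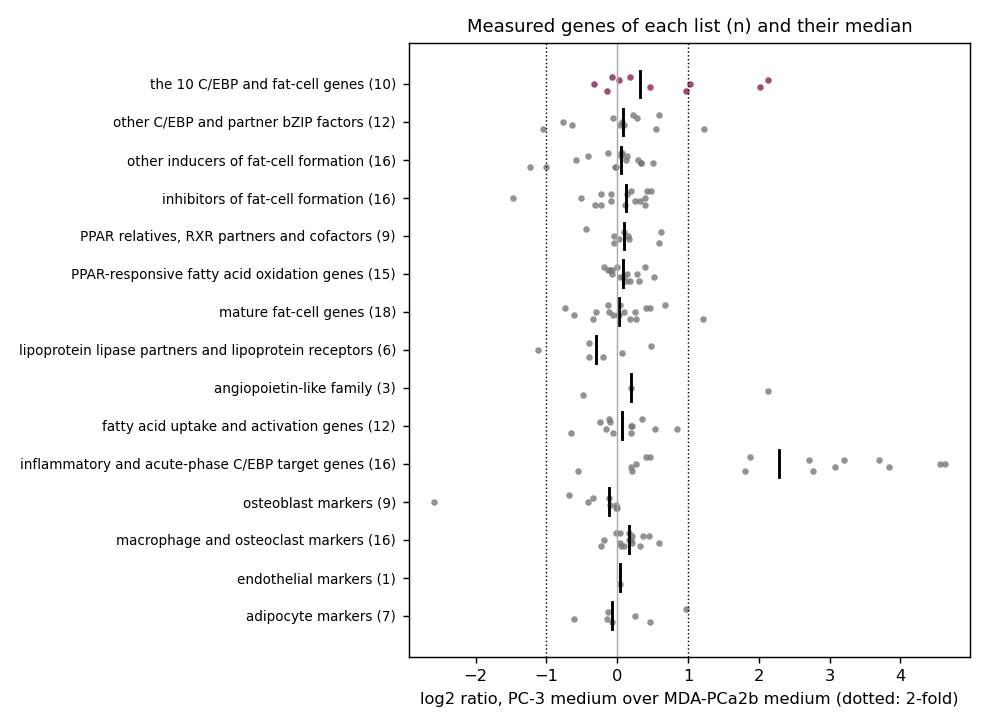
Log2 ratios (PC-3 medium over MDA-PCa2b medium) of the measured genes of each list, 1 point per gene, with the median as a black bar and the number of measured genes in brackets. The list of inflammatory and acute-phase C/EBP targets has a median of 2.29, the 10 C/EBP and fat-cell genes have one of 0.33, and the other lists lie between -0.30 and 0.20.

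The ratios of the 10 genes kept their sign under every way of computing them that was tried and gave a ratio. Cebpb stayed between 1.99 and 2.09 and Angptl4 between 2.12 and 2.17 on the log2 scale, and Cebpd between 1.02 and 1.07. Fabp4 ranged from 0.80 to 1.02 and crossed 2-fold only with the median log2 ratio of all genes set to 0. Lpl stayed between -0.33 and -0.21.

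**Figure D4:**
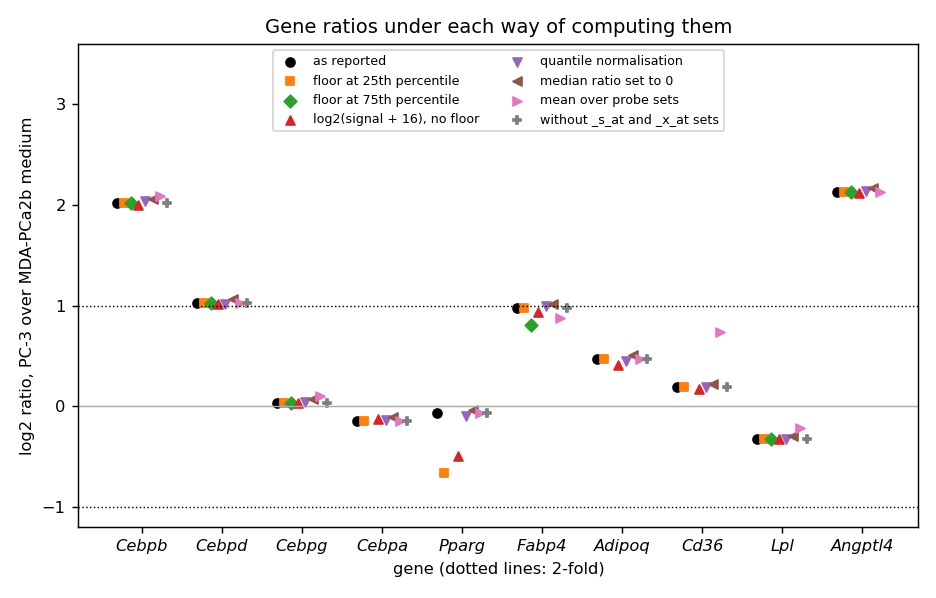
Log2 ratio of each gene (vertical axis) under the reported computation (black) and under each alternative (coloured symbols), with dotted lines at 2-fold. Cebpb, Cebpd and Angptl4 stay above the upper line, Fabp4 lies on it, and the points of Pparg and Cd36 are the most widely spread.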

How the data were processed

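Total RNA (5 µg) was labelled with biotin and hybridised to 1 Affymetrix mouse array per medium. The deposited intensity of each probe set is a linear signal; the submitters' processing notes name GCOS 1.4 and MAS5 for the authors' processing. How background and scaling were set, and any detection calls, are not given in the sources used here. Trimmed means (without the lowest and highest 2%) were 299 on both arrays, so the deposited signals were on a common scale. The number of arrays limits the precision.

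Of 45101 probe sets 64 were controls and were left out. Of all, 34958 had 1 gene in the platform annotation, 932 several and 9211 were not listed, and only the first were named. Signals under the 50th percentile of their array were set to it, log2 was taken, and the MDA-PCa2b value was subtracted from the PC-3 value. Each gene was represented by its brightest probe set (mean of both arrays). A ratio with 1 array at the floor is a bound, and bounds count as measured. No test was run. All 10 genes were named with every probe set, and of each list the genes at least 2-fold different (at most the 4 largest), or the 2 largest. Genes below the floor and those said to be so were named beyond this rule. So were the other angiopoietin-like genes and several of the inflammatory and acute-phase genes. Several cell type markers were too, Sp7, Alpl, Col1a1, Col1a2, Sparc, Ibsp, Lyz2, Csf1r and Adgre1 among them. Genes and lists were chosen with earlier results of these data known. Promoter windows and motif shares came from RefSeq (GRCm38.p6). Scripts (Python 3.11.15, pandas 2.3.3, numpy 2.4.6) were tested on simulated data. Alternatives tried were a floor at the 25th or the 75th percentile, log2(signal + 16) without one, quantile normalisation, centring on the median ratio, averaged probe sets, leaving out _s_at and _x_at probe sets, and thresholds of 1.5-fold and 3-fold.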

Additional observations from a re-analysis of the deposited data

How the results depend on the processing

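The count of C/EBP and fat-cell genes at least 2-fold higher was 3 with either other floor, with log2(signal + 16), with quantile normalisation and with averaged probe sets. It was 4 with the median log2 ratio set to 0 or a threshold of 1.5-fold, and 2 with a threshold of 3-fold or without _s_at and _x_at probe sets. In the last case Angptl4 had no ratio, because its remaining probe set was below the floor. The count at least 2-fold lower was 0 under every alternative. The median log2 ratio by gene, 0.33, was 0.92 with a 75th-percentile floor, where 6 of the 10 genes were measured, and 0.60 with averaged probe sets. By probe set it was 0.33, and 0.87 under that floor. Of 65 alternative values for single genes 62 moved by less than the probe set SD of 0.24; the exceptions were Pparg (-0.67 with a 25th-percentile floor and -0.50 with log2(signal + 16)) and Cd36 (0.73 with averaged probe sets).

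List medians that shifted by more than 0.24 were the following. The median of inflammatory and acute-phase C/EBP targets, 2.29, was 1.87 and 1.05 with the floor at the 25th and 75th percentiles, 1.66 with log2(signal + 16) and 1.81 with averaged probe sets. That of adipocyte markers, -0.07, was 0.25 and 0.80 with these floors. That of the angiopoietin-like genes, 0.20, was 2.13 under a 75th-percentile floor and -0.14 without _s_at and _x_at probe sets. A higher floor leaves fewer genes measured. Without _s_at and _x_at probe sets Angptl4 had no ratio, so the angiopoietin-like median came from Angptl1 (-0.49) and Angptl6 (0.20) alone. The cause of the other shifts was not tested. With signals near the floor, as for Pparg, Adipoq and the weaker Cd36 probe sets, only differences well above the floor could be seen. No paired analysis was possible because each medium had 1 array.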

Other observations

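Some genes outside the naming rule were chosen after their values were seen. Klf4, a Kruppel-like factor gene known as an early inducer of Cebpb in fat-cell formation, had signals of 2112 under MDA-PCa2b medium and 1057 under PC-3 medium, 1.998-fold lower, with a log2 ratio of -1.32 by its other probe set. Hp, the gene of the haemoglobin-binding protein haptoglobin, was 6.56-fold higher under PC-3 medium (74.3 and 487). Sod2, the gene of mitochondrial superoxide dismutase, was 3.66-fold higher (1826 and 6677), with log2 ratios from 0.96 to 2.24 by its other probe sets. Ptx3, a pentraxin gene, was 6.83-fold higher by its brightest probe set, while its other measured probe set gave a log2 ratio of -0.53. Fasn, the fatty acid synthase gene, had a log2 ratio of -0.73 (1796 and 1082), opposite in sign to that of Dgat1.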
